A study of Homo sapiens with 6 samples.

Results

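The 31 genes described here encode the machinery that oxidises fatty acids in mitochondria and peroxisomes. They were chosen by name from the pathway, with earlier results of these data known. Each symbol matched 1 row of the deposited table, and the genes are 31 of its 78304 rows. Sequencing of poly(A) RNA gave their transcript levels in Huh7 cells, an established human hepatocellular carcinoma line, wild type by its label. After 24 h of seeding, cells received the vehicle DMSO or the compound 16'-DEC for a further 24 h, with 3 libraries in each group. The compound is known here only by its code, and the labels state no dose. Since no label says whether replicate libraries came from separate cultures, the p-values reflect variation among the 6 libraries, which may be technical. The study set out to learn how 16'-DEC acts on liver cancer cells, and the comparison asks which of these transcripts differed after it.

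Fatty acids enter the mitochondrial matrix as carnitine esters, made by CPT1A on the outer membrane, carried across the inner membrane by SLC25A20 and turned back into acyl-CoA by CPT2. Each turn of the cycle then removes acetyl-CoA through dehydrogenation, hydration, a second dehydrogenation and thiolysis, and the electrons of the initial step pass through the electron transfer flavoprotein to ubiquinone. Peroxisomes run a parallel cycle on very long, branched and bile acid side chains, and hand shortened chains to mitochondria. In liver the nuclear receptor PPARA induces many of these genes, and acetyl-CoA from the cycle can leave as ketone bodies.

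Upstream sequence is shown for the genes on which the results turn. HADHA and HADHB diverge from neighbouring starts, and their ratio did not overlap between the groups. Of the stretch between this pair the HADHB window is shown, which leaves out the bases next to the HADHA start. The others are SLC25A20, which rose most, ACADM, a mitochondrial gene called lower in every alternative processing, and SCP2, which fell most. All are RefSeq promoter entries on GRCh38.p14, the 250 bases before the transcript start, 5′ to 3′ on the gene's strand; capitals mark GGGCGG (the GC box bound by SP1 and related factors) or CCGGAA (an ETS core) on either strand.
HADHB, chr2:26244689-26244938, plus strand: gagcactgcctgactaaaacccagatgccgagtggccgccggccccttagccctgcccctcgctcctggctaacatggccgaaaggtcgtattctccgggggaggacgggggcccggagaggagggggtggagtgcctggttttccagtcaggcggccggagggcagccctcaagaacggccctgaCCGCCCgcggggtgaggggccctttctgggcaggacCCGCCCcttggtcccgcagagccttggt
SLC25A20, chr3:48898883-48899132, minus strand: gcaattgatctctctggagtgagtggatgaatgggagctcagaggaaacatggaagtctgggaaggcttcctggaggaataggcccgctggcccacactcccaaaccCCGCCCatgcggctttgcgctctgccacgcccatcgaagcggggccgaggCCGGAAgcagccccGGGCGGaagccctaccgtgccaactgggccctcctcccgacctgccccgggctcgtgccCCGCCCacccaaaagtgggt
ACADM, chr1:75724459-75724708, plus strand: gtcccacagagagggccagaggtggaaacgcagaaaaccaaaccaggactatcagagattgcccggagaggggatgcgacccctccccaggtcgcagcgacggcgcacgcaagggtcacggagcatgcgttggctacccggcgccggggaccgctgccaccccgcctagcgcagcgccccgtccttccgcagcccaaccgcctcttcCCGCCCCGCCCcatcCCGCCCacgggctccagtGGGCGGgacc
SCP2, chr1:52927026-52927275, plus strand: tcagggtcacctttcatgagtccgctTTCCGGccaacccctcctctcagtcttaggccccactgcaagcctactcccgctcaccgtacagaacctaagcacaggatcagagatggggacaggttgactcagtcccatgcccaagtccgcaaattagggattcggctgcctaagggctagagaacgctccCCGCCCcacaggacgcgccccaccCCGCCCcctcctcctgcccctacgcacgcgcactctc

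The HADHA start lies 307 bases from the HADHB start on the other strand, so that the windows of the pair overlap by 194 bases. RefSeq gave 33 windows for 25 of the 31 genes. SCP2 has another window, chr1:53014687-53014936, before a start within the gene. It held none of the motifs searched and is not shown. GGGCGG occurred in 27 of the 33, against 42.6% of all 35116 windows of this length, and CCGGAA in 8, against 14.5% of all. CCAAT, the NF-Y box, occurred in 7 of the 33 (32.0% of all). The nuclear receptor half-site AGGTCA, in these exact letters, was in 0 of the 33 (12.1% of all). Variant half-sites were not searched. CACGTG, the E-box read by TFEB and MYC among others, was in 0 of the 33 (6.34% of all). The motifs were searched on both strands, and matches may share bases. A match is not a bound site, and these windows do not cover distal elements. The median GC content of all windows was 58.0%. Windows of the 31 genes ranged from 40.4% to 87.2%, and those shown from 62.4% (SCP2) to 70.8% (ACADM). The part of GC content in the motif shares was not tested. The windows of ECI2 overlap each other, as do those of ACAT1, so the 33 are not independent. ACADM and SLC25A20, which moved in opposite directions, both had GGGCGG, at 4 and 3 places.

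Expression is given in TPM, a transcript abundance normalised for length and library that carries no absolute depth. Changes are 16'-DEC minus DMSO on the log2(TPM + 1) scale with their SE, fitted with limma over the 14275 genes whose mean reached 1 TPM; adjusted p is by Benjamini-Hochberg over all of these, with a threshold of 0.05. Of the 31 genes 29 passed the filter on level, and the other 2, PDK4 and ANGPTL4, have no test. Of the 29, 12 rose, 12 fell and 5 did not pass. That is 41.4% in each direction, beside 22.7% higher and 48.9% lower among all genes tested, and the median change of the 29 was 0.09, beside -0.31 for all genes. The libraries of the groups did not overlap for 24 of the 29, or 82.8%, beside 75.3% of all genes.

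Those shares depended on how libraries were put on a common scale, which matters because the median gene was lower with 16'-DEC in the deposited values. Median-of-ratios scaling raised the median change of all genes by 0.29, quantile normalization by 0.41 and an adjustment for the GC content and length of transcripts by 0.33. With median-of-ratios scaling 17 of the 29 were higher and 7 lower (37.1% and 37.7% of all genes), with quantile normalization 15 and 8 (42.0% and 33.3%), and with the GC and length adjustment 14 and 9 (34.5% and 31.7%). The call was the same under all 3 for 8 of the genes that rose, CPT1A, SLC25A20, ACADS, HADHA, ACAA2, ECI2, ETFB and ACOX3, and for 6 of those that fell, ACADM, ACADSB, EHHADH, SCP2, ABCD3 and CROT. The plot of levels by library shows these genes with their replicates.

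**Figure D1:**
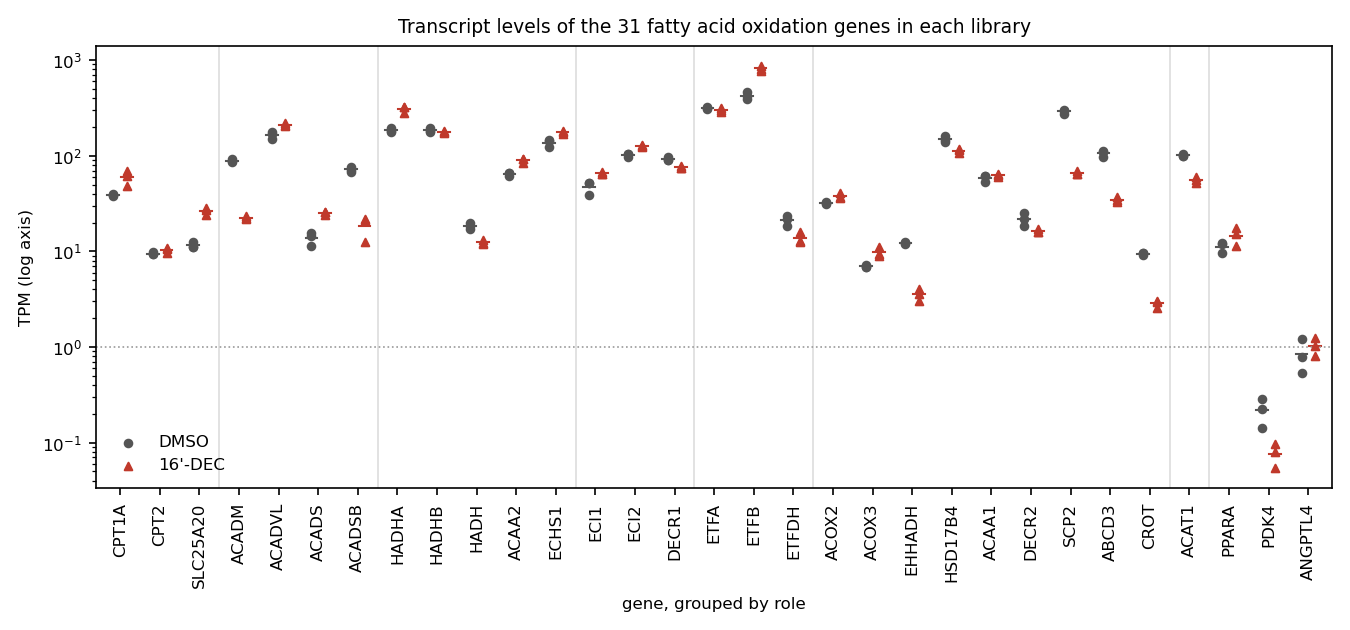
TPM of each of the 31 genes in the 3 DMSO (circles) and 3 16'-DEC (triangles) libraries on a log axis, with short lines at group means and vertical lines between roles; the dotted line marks 1 TPM. PDK4 lies below 1 TPM in every library, and SCP2, ACADM and ACADSB show wide gaps between the groups.

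In the carnitine shuttle, SLC25A20 and CPT1A rose and CPT2 did not pass. SLC25A20, the carnitine-acylcarnitine carrier (ENSG00000178537, chromosome 3, 48856931 to 48898993, minus strand; GRCh38, GENCODE 29, as for all gene positions), was at 11.2, 11.2 and 12.6 TPM in DMSO and at 24.1, 28.2 and 27.0 TPM with 16'-DEC. Every treated library was above every DMSO library, and the mean was 2.27-fold higher (1.11 ± 0.0939, adjusted p = 7.85e-06), the largest rise of the 29. CPT1A, the regulated entry step (ENSG00000110090, chromosome 11, 68754620 to 68844410, minus strand), was at 37.5, 40.1 and 38.5 TPM in DMSO and at 69.7, 61.0 and 48.3 TPM with 16'-DEC. Here too the groups did not overlap, although 16'-DEC replicate 3 lay closer to DMSO than the other treated libraries; the mean was 1.54-fold higher (0.60 ± 0.125, adjusted p = 0.00223). CPT2, the inner membrane transferase, had overlapping groups, from 9.29 to 9.75 TPM in DMSO and from 9.56 to 10.8 TPM with 16'-DEC (0.12 ± 0.0887, adjusted p = 0.264). CPT2 passed as higher with median-of-ratios scaling (0.44), quantile normalization (0.60) and the GC and length adjustment (0.16), but not with that adjustment and the replicate block together (adjusted p = 0.0765). Its exons overlap a gene on the opposite strand, C1orf123, whose mean was 24.2 TPM in DMSO against 21.0 TPM in treated libraries, and no strand use is stated for the counting. The summed level of the shuttle went from 59.8 ± 1.63 to 96.4 ± 10.3 TPM (mean ± SD of 3 libraries, as for all levels given so).

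Among the acyl-CoA dehydrogenases, which carry out the initial step and differ in the chain length they accept, 2 rose and 2 fell. ACADM, the medium-chain enzyme (ENSG00000117054, chromosome 1, 75724347 to 75787575, plus strand), was at 87.5, 92.0 and 85.9 TPM in DMSO and at 22.4, 23.2 and 21.7 TPM with 16'-DEC. The replicates lay within a few TPM of each other and the DMSO mean was 3.94-fold the treated mean (-1.93 ± 0.0720, adjusted p = 1.44e-07; -0.92 after GC and length adjustment). ACADM shares exon positions with RABGGTB on the same strand, whose mean was 231 TPM in DMSO against 83.2 TPM in treated libraries, and how reads were split between the pair is not given. ACADSB, which acts on short branched chains from isoleucine, was at 77.1, 68.0 and 70.7 TPM in DMSO and at 21.2, 21.6 and 12.4 TPM with 16'-DEC. All treated libraries were far below DMSO and replicate 3 was the lowest (-1.95 ± 0.184, adjusted p = 1.65e-05; -0.56 after GC and length adjustment). ACADS, the short-chain enzyme, was at 11.5, 14.6 and 15.4 TPM in DMSO and at 25.7, 24.2 and 25.9 TPM with 16'-DEC. The groups were apart, with a mean 1.83-fold higher (0.83 ± 0.112, adjusted p = 1.50e-04; 0.52 after GC and length adjustment). ACADVL, the membrane-bound very-long-chain enzyme, rose from 149 to 176 TPM in DMSO to 204 to 218 TPM with 16'-DEC (0.36 ± 0.0807, adjusted p = 0.00355), but did not pass after GC and length adjustment (0.07, adjusted p = 0.183).

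The later steps of the mitochondrial cycle gave 3 higher, 1 lower and 1 that did not pass, and they hold the pair with the shared upstream stretch. HADHA and HADHB encode the alpha and beta subunits of the mitochondrial trifunctional protein, which hydrates, oxidises and cleaves long chains. HADHA (ENSG00000084754, chromosome 2, 26190635 to 26244726, minus strand) was at 176, 180.5 and 195 TPM in DMSO and at 323, 325 and 280.3 TPM with 16'-DEC. HADHB (ENSG00000138029, chromosome 2, 26243170 to 26290468, plus strand) was at 178, 195 and 181 TPM in DMSO and at 180.2, 178 and 171 TPM with 16'-DEC. In DMSO the subunits stood at like levels, and with 16'-DEC HADHA was above HADHB in all 3 libraries: HADHA rose (0.75 ± 0.0816, adjusted p = 4.08e-05) while HADHB had overlapping groups and did not pass (-0.06 ± 0.0682, adjusted p = 0.417). HADHB was called higher under median-of-ratios scaling (0.29, adjusted p = 0.00464) and by the GC and length adjustment (0.41, adjusted p = 4.06e-04), where HADHA was at 1.10 and 0.90. Their gene models overlap on opposite strands without sharing exon positions.

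HADH, the 3-hydroxyacyl-CoA dehydrogenase of medium and short chains, fell from 17.1 to 19.9 TPM in DMSO to 12.0 to 13.1 TPM with 16'-DEC (-0.53 ± 0.0893, adjusted p = 6.12e-04). That call was lost with median-of-ratios scaling (-0.20, adjusted p = 0.0570) and quantile normalization (-0.07). ACAA2, the thiolase that ends the cycle, rose from 61.3 to 66.0 TPM in DMSO to 84.1 to 92.9 TPM with 16'-DEC (0.47 ± 0.0744, adjusted p = 4.14e-04; 0.97 after GC and length adjustment). ECHS1, the short-chain hydratase, rose from 124 to 145 TPM in DMSO to 169.6 to 183 TPM with 16'-DEC (0.36 ± 0.0803, adjusted p = 0.00299), but was at 0.04 after GC and length adjustment (adjusted p = 0.443). The 5 genes summed to 588 ± 27.8 TPM in DMSO and 763 ± 28.7 TPM with 16'-DEC.

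Unsaturated chains need isomerases and a reductase before they can go round the cycle. Both isomerases rose: ECI2, found in mitochondria and peroxisomes, from 97.6 to 105 TPM in DMSO to 125 to 129 TPM with 16'-DEC (0.32 ± 0.0662, adjusted p = 0.00208). ECI1, the mitochondrial isomerase, was at 38.8, 52.5 and 51.6 TPM in DMSO and at 65.0, 64.3 and 66.8 TPM with 16'-DEC (0.46 ± 0.115, adjusted p = 0.00584). Its groups did not overlap and DMSO replicate 1 was the lowest; it did not pass after GC and length adjustment (0.13, adjusted p = 0.107). DECR1, the mitochondrial 2,4-dienoyl-CoA reductase, fell from 89.2 to 97.0 TPM in DMSO to 73.6 to 78.5 TPM with 16'-DEC (-0.29 ± 0.0710, adjusted p = 0.00570), but was at 0.06 under median-of-ratios scaling and called higher after GC and length adjustment (0.38, adjusted p = 4.85e-04).

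The electron transfer genes gave 1 higher, 1 lower and 1 that did not pass. ETFA and ETFB encode the subunits of the electron transfer flavoprotein, a dimer of the pair, and ETFDH encodes the oxidoreductase that passes its electrons to ubiquinone. ETFB (ENSG00000105379, chromosome 19, 51345169 to 51366418, minus strand) was at 390.4, 418 and 464 TPM in DMSO and at 812, 770.1 and 875 TPM with 16'-DEC, 1.93-fold higher in the mean (0.95 ± 0.0838, adjusted p = 1.05e-05). ETFA (ENSG00000140374, chromosome 15, 76215355 to 76311472, minus strand) was at 326, 314 and 307 TPM in DMSO and at 288, 318 and 302 TPM with 16'-DEC. The groups of ETFA overlapped (-0.06 ± 0.0672, adjusted p = 0.431), and it was called higher under median-of-ratios scaling (0.29) and after GC and length adjustment (0.55), where ETFB was at 1.30 and 0.65. ETFDH was at 23.7, 21.7 and 18.4 TPM in DMSO and at 12.6, 15.9 and 12.8 TPM with 16'-DEC. It fell (-0.59 ± 0.123, adjusted p = 0.00212), and did not pass at -0.26 with median-of-ratios scaling or at 0.08, the other direction, after GC and length adjustment. Its exons overlap PPID and C4orf46 on the opposite strand, both lower with 16'-DEC in their means (79.3 to 40.1 and 14.1 to 3.37 TPM).

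**Figure D2:**
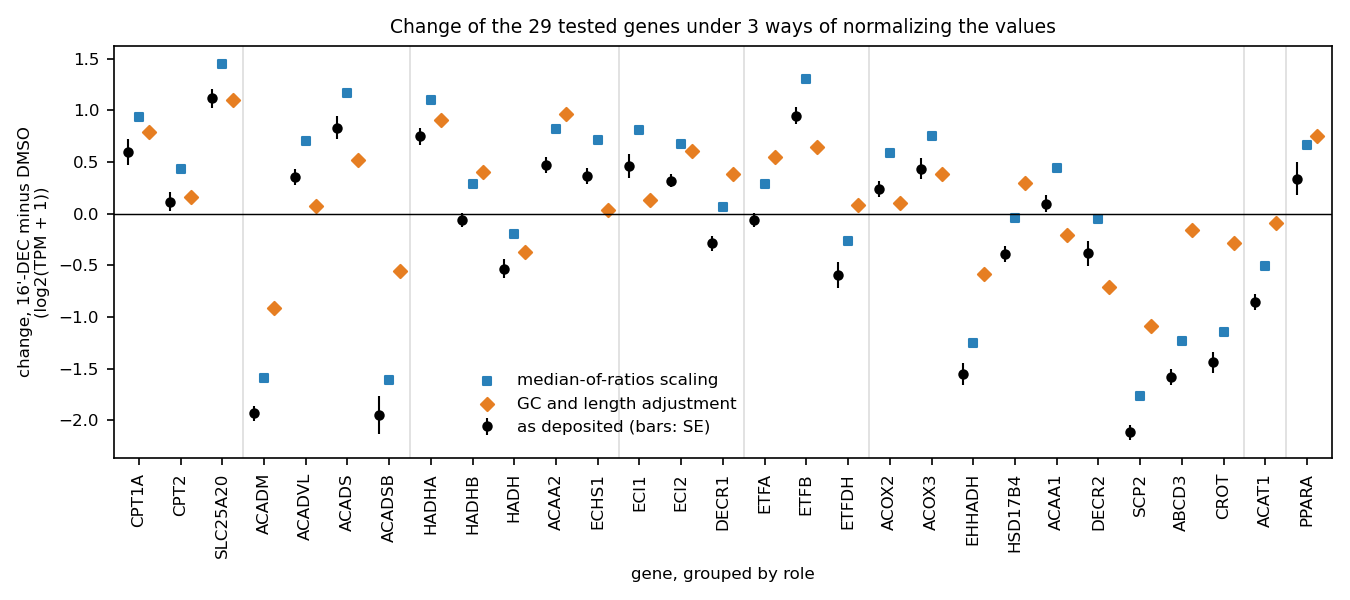
Change in log2(TPM + 1), 16'-DEC minus DMSO, of the 29 tested genes by role, as deposited (black, bars are SE), under median-of-ratios scaling (blue squares) and after GC and length adjustment (orange diamonds). SLC25A20, HADHA and ETFB stay above 0 and SCP2, ACADM and EHHADH below 0 in all 3, while DECR1, HSD17B4 and ETFA change side.

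Of the 9 peroxisomal genes 6 fell, 2 rose and 1 did not pass, beside 48.9% lower and 22.7% higher among all genes. Their median change was -0.39, near the -0.31 of all genes. Median-of-ratios scaling gave 4 lower and 3 higher (37.7% and 37.1% of all genes), and the GC and length adjustment 6 lower and 2 higher (31.7% and 34.5%). The genes behind the adjusted counts differed from those as deposited: HSD17B4 was then called higher, ACAA1 was called lower and ACOX2 did not pass. SCP2 encodes the peroxisomal thiolase of branched chains and, from an internal start, sterol carrier protein 2; the table has 1 value for the gene (ENSG00000116171, chromosome 1, 52927229 to 53051703, plus strand). It was at 291, 304 and 276 TPM in DMSO and at 64.3, 69.6 and 64.5 TPM with 16'-DEC. This was the largest fall of the 29, with a DMSO mean 4.38-fold the treated mean (-2.12 ± 0.0718, adjusted p = 1.17e-07; -1.09 after GC and length adjustment). ABCD3, a transporter of acyl-CoA into peroxisomes, was at 112, 108 and 98.1 TPM in DMSO and at 34.2, 36.8 and 33.2 TPM with 16'-DEC. The groups were widely apart (-1.58 ± 0.0807, adjusted p = 4.59e-07), with only -0.15 left after GC and length adjustment. EHHADH, the bifunctional enzyme of the straight-chain branch and a known PPARA target, was at 12.7, 12.1 and 12.3 TPM in DMSO and at 3.62, 4.04 and 3.02 TPM with 16'-DEC. It fell (-1.55 ± 0.108, adjusted p = 2.42e-06), and remained called at -0.58 after GC and length adjustment. CROT, which makes carnitine esters of shortened chains for export, was at 9.60, 9.55 and 9.17 TPM in DMSO and at 3.01, 2.97 and 2.58 TPM with 16'-DEC (-1.44 ± 0.0974, adjusted p = 2.03e-06; -0.28 after GC and length adjustment).

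Smaller differences made up the rest of the peroxisomal group. HSD17B4, the bifunctional enzyme of branched and bile acid chains, fell from 139 to 159 TPM in DMSO to 107 to 117 TPM with 16'-DEC (-0.39 ± 0.0779, adjusted p = 0.00177), but turned to a called 0.30 after GC and length adjustment (adjusted p = 0.00883). DECR2, the peroxisomal dienoyl-CoA reductase, fell from 18.2 to 25.4 TPM in DMSO to 15.9 to 17.2 TPM with 16'-DEC (-0.38 ± 0.119, adjusted p = 0.0168), but was at 0.05 after quantile normalization, and leaving out DMSO replicate 2 ended the call (-0.27, adjusted p = 0.0575); after GC and length adjustment it was at -0.71. DECR2 shares exon positions with NME4 on the same strand. The oxidases ACOX3 and ACOX2, which act on branched and bile acid chains, rose. ACOX3 was at 6.85, 6.86 and 7.24 TPM in DMSO and at 11.2, 8.89 and 9.44 TPM with 16'-DEC (0.44 ± 0.104, adjusted p = 0.00463). ACOX2 rose from 30.96 to 32.7 TPM in DMSO to 35.9 to 40.7 TPM with 16'-DEC (0.24 ± 0.0787, adjusted p = 0.0214). The ACOX2 call was lost without DMSO replicate 1 (adjusted p = 0.0553) or replicate 3 (adjusted p = 0.0540), and after GC and length adjustment (0.11). ACAA1, the peroxisomal thiolase of straight chains, had overlapping groups, from 53.1 to 61.8 TPM in DMSO and from 60.0 to 65.0 TPM with 16'-DEC (0.09 ± 0.0830, adjusted p = 0.332); it was called higher under median-of-ratios scaling (0.44) but lower after GC and length adjustment (-0.21).

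In summed level the peroxisomal genes went from 685 ± 32.2 TPM in DMSO to 347 ± 6.68 TPM with 16'-DEC, and SCP2 and ABCD3 made up most of the difference. The sum of the 18 mitochondrial genes from the shuttle to electron transfer went the other way, from 1990 ± 75.4 to 2541 ± 11.6 TPM, and ETFB and HADHA made up most of the difference. Among the mitochondrial roles the acyl-CoA dehydrogenases were lower in sum, 339 ± 12.6 TPM in DMSO and 277 ± 12.0 TPM with 16'-DEC. The sums of the other mitochondrial roles were higher. Over all 31 genes the sum was 2788 ± 76.6 TPM in DMSO and 2959 ± 2.54 TPM with 16'-DEC, with DMSO from 2702 to 2849 and 16'-DEC from 2957 to 2962. These sums are descriptions of the deposited scale and carry no test. In bulk libraries, less transcript per cell and fewer cells with the transcript cannot be told apart.

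**Figure D3:**
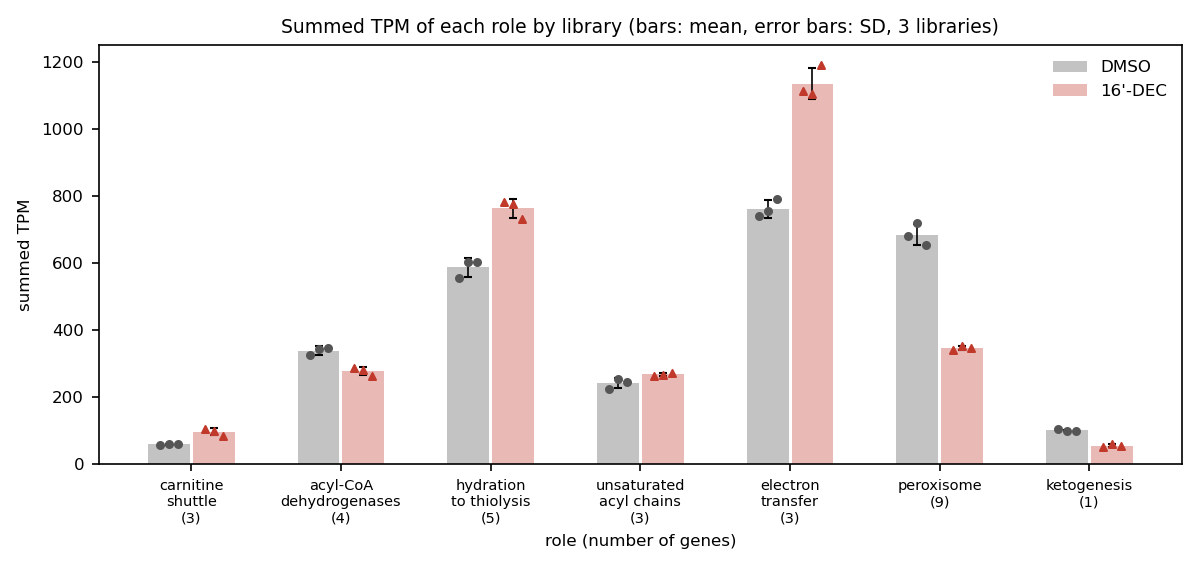
Summed TPM of the genes of each role (number of genes in brackets) in the DMSO (grey, circles) and 16'-DEC (red, triangles) libraries; bars are means and error bars SD over 3 libraries. The peroxisomal sum is lower with 16'-DEC (685 to 347 TPM) and the electron transfer sum higher (762 to 1136 TPM).

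Ketogenesis is represented by ACAT1, the mitochondrial acetoacetyl-CoA thiolase that begins it. ACAT1 was at 104, 99.9 and 98.7 TPM in DMSO and at 51.3, 59.7 and 55.4 TPM with 16'-DEC. The groups were apart and the DMSO mean was 1.82-fold the treated mean (-0.85 ± 0.0782, adjusted p = 1.34e-05), but the call was lost after GC and length adjustment (-0.09, adjusted p = 0.148).

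PPARA, the receptor (ENSG00000186951, chromosome 22, 46150521 to 46243756, plus strand), was at 12.3, 9.50 and 11.9 TPM in DMSO and at 17.4, 15.1 and 11.4 TPM with 16'-DEC. Replicate 3 of 16'-DEC lay within the DMSO range, and the change did not pass (0.34 ± 0.156, adjusted p = 0.0791). Without that library it passed (0.50, adjusted p = 0.00872), as it did with median-of-ratios scaling (0.66), quantile normalization (0.81), the GC and length adjustment (0.75) and weights for each library (0.44). PDK4, the kinase that restrains pyruvate dehydrogenase, was at 0.227, 0.289 and 0.142 TPM in DMSO and at 0.0540, 0.0970 and 0.0790 TPM with 16'-DEC. ANGPTL4, a secreted inhibitor of lipoprotein lipase, was at 0.538, 1.22 and 0.795 TPM in DMSO and at 1.04, 0.809 and 1.24 TPM with 16'-DEC. Exons of ANGPTL4 overlap RAB11B-AS1 on the opposite strand, whose mean was 4.14 TPM in DMSO and 4.90 TPM with 16'-DEC. The groups of PDK4 did not overlap, with a DMSO mean 2.86-fold the treated mean, and those of ANGPTL4 did. With no filter on level neither passed (limma, -0.18 and adjusted p = 0.0570 for PDK4, 0.14 and adjusted p = 0.586 for ANGPTL4).

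Ratios of related genes within a library do not change when a library is scaled by a factor, and 8 were compared. With 3 libraries against 3 the smallest 2-sided p of the exact permutation test is 0.1, or 0.133 after adjustment over the 8, so none could pass. The HADHA to HADHB ratio was 0.987, 0.924 and 1.08 in DMSO and 1.79, 1.83 and 1.64 with 16'-DEC. The subunit transcripts thus went from near parity to a ratio of 1.75 ± 0.101, a log2 ratio change of 0.82 (exact permutation p = 0.1), which was 0.50 after GC and length adjustment. The ETFA to ETFB ratio was 0.836, 0.751 and 0.662 in DMSO and 0.355, 0.413 and 0.346 with 16'-DEC. Its log2 ratio change of -1.01 (exact permutation p = 0.1) was -0.0956, with overlapping groups, after GC and length adjustment; the ETFB transcript has a GC content of 62.0% and that of ETFA 43.8%.

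The EHHADH to HADHA ratio, between the peroxisomal and the mitochondrial multifunctional enzyme, went from 0.0674 ± 0.00451 to 0.0115 ± 0.000872, a log2 ratio change of -2.55 (-1.48 after GC and length adjustment). The ratio of CPT1A to CPT2 went from 4.09 ± 0.0414 to 5.73 ± 0.692, with replicate 3 of 16'-DEC the lowest treated library. The thiolase ratio ACAA1 to ACAA2, peroxisome over mitochondria, went from 0.911 ± 0.0394 to 0.698 ± 0.0229, a log2 ratio change of -0.38 that was -1.17 after GC and length adjustment. The ratio of ACOX3 to ACOX2 went from 0.219 ± 0.00837 to 0.261 ± 0.0440. With the subunit ratios, these made 6 of 8 without overlap between the groups (exact permutation p = 0.1 for each). Of all genes taken singly 75.3% had no overlap, and no share was computed for other pairs of genes. The other 2 ratios overlapped. ECI1 to ECI2 was at 0.467 ± 0.0596 and 0.514 ± 0.0148, and DECR1 to DECR2 at 4.29 ± 0.552 and 4.63 ± 0.318 (exact permutation p = 0.3 and p = 0.4). After GC and length adjustment neither overlapped: the log2 ratio change of ECI1 to ECI2 went from 0.15 to -0.47 and that of DECR1 to DECR2 from 0.11 to 1.10 (exact permutation p = 0.1 for each).

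**Figure D4:**
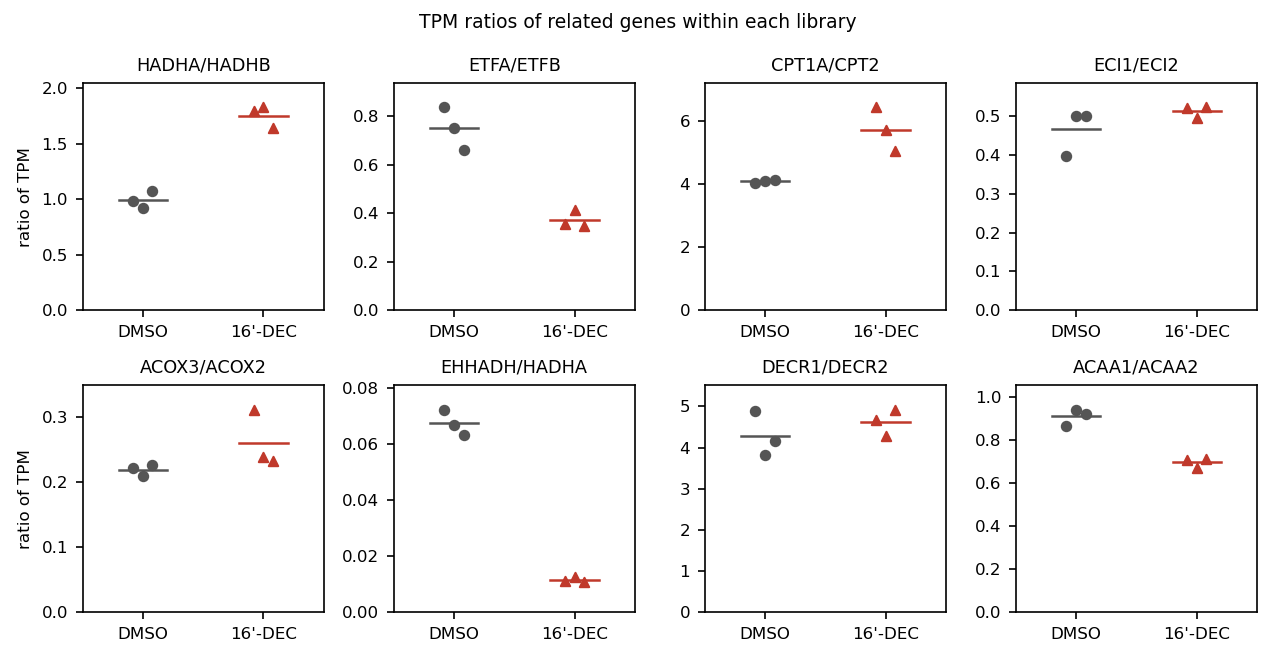
Ratio of TPM of 2 related genes within each library, for 8 pairs, in DMSO (grey circles) and 16'-DEC (red triangles), with lines at group means and axes from 0. HADHA/HADHB is near 1 in DMSO and from 1.64 to 1.83 with 16'-DEC, and ECI1/ECI2 and DECR1/DECR2 overlap.

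The direction of change went with the GC content of the transcripts. The 12 genes that rose had a GC content from 45.6% to 64.6% (median 54.1%), and the 12 that fell from 37.7% to 62.5% (median 42.4%). Across the 29 genes Spearman's rho of change on GC content was 0.766, and across the 13291 tested genes with a GC value it was 0.680; genes are not independent replicates, and all changes share the same 6 libraries. The 6 genes of lowest GC content, from 37.7% to 42.1%, were ABCD3, ACADSB, CROT, ACADM, SCP2 and EHHADH, and these were also the 6 with the largest falls as deposited. As deposited, HADH at 48.0% GC was at -0.53 and PPARA at 47.6% at 0.34 without passing. DECR2 at 62.5% was at -0.38 and ETFB at 62.0% at 0.95. Neither HADH nor DECR2 was called with median-of-ratios scaling or quantile normalization. After GC and length adjustment both were called lower, HADH at -0.38 (adjusted p = 0.00237) and DECR2 at -0.71 (adjusted p = 1.34e-04). The part of GC content in each change was not tested. Changes after GC and length adjustment are given with the tested genes above, except those of SLC25A20 (1.10), CPT1A (0.79), ECI2 (0.61) and ACOX3 (0.38).

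**Figure D5:**
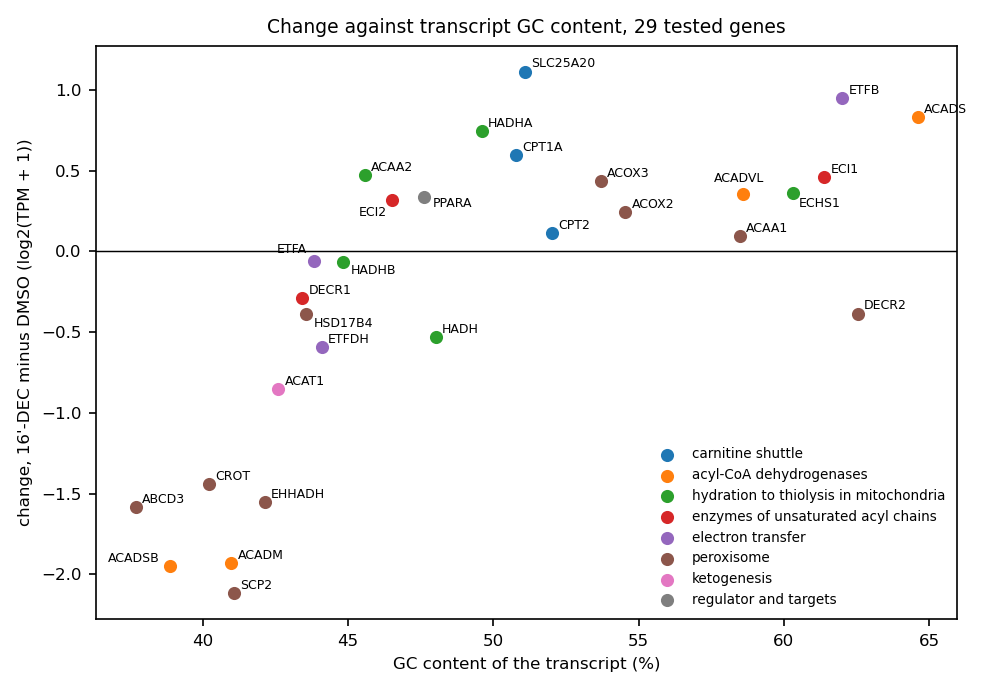
Change in log2(TPM + 1), 16'-DEC minus DMSO, against the GC content of the transcript in percent, 1 point per tested gene, coloured by role. The 6 genes of lowest GC content lie at -1.44 or below, and DECR2 (62.5% GC, -0.38) lies apart from the other genes of high GC content.

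Other genes of the pathway were counted in lists, to be read against 22.7% higher and 48.9% lower among all genes as deposited, 37.1% and 37.7% with median-of-ratios scaling, and 34.5% and 31.7% after GC and length adjustment. Of 18 tested genes of acyl-CoA entry and carnitine supply, 7 rose and 7 fell, while 10 were higher and 5 lower under either alternative. ACSL5 and SLC27A4, which activate fatty acids, rose by 1.09 and 1.11 (1.69 and 0.87 after GC and length adjustment), and ACSL4, which prefers arachidonate, and SLC27A2, of very long chains, fell by 1.92 and 1.03 (-0.41 and -0.90). Of 17 tested genes of mitochondrial oxidation outside the 31, 4 rose and 10 fell as deposited, 7 were higher and 8 lower with median-of-ratios scaling, and 7 higher and 6 lower after GC and length adjustment. The median change of that list was -0.61 as deposited and 0.07 after the adjustment. HSD17B10 (0.90) and ACOT9 (0.72) rose, and ECHDC1 (-1.84, adjusted to -0.71) and MMUT, the methylmalonyl-CoA mutase, fell. MMUT was at -1.08 as deposited and turned to a called 0.26 after GC and length adjustment. Of 5 tested genes of ketone bodies 2 rose and 3 fell: ACAT2, the cytosolic thiolase, rose by 0.78, while BDH2 fell by 1.62 and the monocarboxylate carrier SLC16A1 by 1.18 (-0.88 and -0.37 after GC and length adjustment).

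Of 17 tested peroxisomal genes outside the 31, 5 rose and 9 fell as deposited, but 7 were higher and 6 lower with median-of-ratios scaling, and 8 higher and 5 lower after GC and length adjustment. ACOT8, a thioesterase, rose by 0.68 (0.38 after the adjustment) and MVK, mevalonate kinase, by 1.21, and AGPS, of ether lipid synthesis, was at -1.36 as deposited but at 0.19 and called higher after GC and length adjustment. ACBD5, a tether to the endoplasmic reticulum, fell by 1.28 and was at -0.01 after that adjustment. Of 14 tested peroxins 3 rose and 5 fell, but 8 were higher and 4 lower with median-of-ratios scaling and 7 higher and 1 lower after GC and length adjustment. PEX16 (0.63) and PEX14 (0.49) rose, at 0.32 and, without passing, 0.15 after the adjustment, and PEX3 went from a called -1.27 to 0.18 after GC and length adjustment without passing.

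Of 17 tested receptors and coregulators 6 rose and 8 fell as deposited, 8 were higher and 6 lower with median-of-ratios scaling, and 7 higher and 9 lower after GC and length adjustment. PPARGC1A, the coactivator PGC-1alpha, went from 18.0 ± 1.83 to 4.01 ± 0.738 TPM (-1.93, adjusted p = 2.14e-06; -0.71 after GC and length adjustment), and the deacetylase SIRT1 fell by 1.55 (-0.36 after the adjustment). CREB3L3, which acts with PPARA in fasting liver, rose by 0.90 and the receptor ESRRA by 0.50 (0.63 and 0.18 after the adjustment). Of 13 tested other PPARA targets 5 rose and 4 fell as deposited, 9 were higher and 3 lower with median-of-ratios scaling, and 6 higher and 3 lower after GC and length adjustment. The lipid droplet proteins PLIN2 and CIDEC rose by 1.35 and 1.77, PLIN2 from 542 ± 41.4 to 1382 ± 44.5 TPM, and FABP1, the liver fatty acid binding protein, fell by 0.80 from 661 ± 61.7 to 379 ± 21.1 TPM. KLF10 fell by 0.77, and the adjusted changes of FABP1 and KLF10 were -0.34 and -0.26.

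All 12 hepatocyte and Huh7 markers looked up were above 1 TPM, with a summed level from 23216 to 24215 TPM in DMSO and from 26768 to 27501 TPM with 16'-DEC; 5 rose and 4 fell, and 8 were higher and 3 lower with median-of-ratios scaling as after GC and length adjustment. APOA2 (0.72) and APOA1 (0.73) rose and AFP (-1.50) and FGB (-1.28) fell, at 0.66, 0.41, -0.27 and -0.36 after that adjustment. Of 12 markers of immune, stromal and endothelial cells, CD3E and DCN were listed at 0 throughout and 3 reached a mean of 1 TPM. Among these CD68 rose by 1.22, from 16.8 ± 0.692 to 40.7 ± 4.93 TPM, and ACTA2 fell by 0.34 (-0.01 under median-of-ratios scaling). Markers outside these 3 had means under 1 TPM in DMSO and with 16'-DEC. The 12 had a summed level from 36.1 to 39.4 TPM in DMSO and from 54.2 to 63.6 TPM with 16'-DEC. The part of such cells in the changes was not tested. Genes at 1 TPM or more numbered from 14936 to 15118 in DMSO and from 13131 to 13459 with 16'-DEC, and mitochondrially encoded genes took from 10.7% to 12.8% of the TPM sum in DMSO libraries and from 11.3% to 11.7% in treated ones. Any pair of libraries had identical values at no more than 0.329% of expressed genes, and all 6 were kept as separate samples.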

How the data were processed

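The authors deposited 1 table of TPM values for 6 libraries. The submitters' processing notes name the build GRCh38 and, with no role or order, DESeq2, HTSeq 0.6.1, HISAT2 2.0.1 and cutadapt 1.9.1. Which annotation, gene lengths and strand setting lie behind the values is not given in the sources used here. These values carry no depth, so no counting error can be given. Columns were assigned by sample titles.

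Genes whose mean reached 1 TPM were tested on log2(TPM + 1), which understates changes of low genes, with limma 3.58.1 in R 4.3.3 (mean trend, 2-sided, Benjamini-Hochberg over all genes tested), on the 3 DMSO and 3 16'-DEC libraries, and checked on simulated data. The 31 genes and the lists were chosen with earlier results of these data known. All 31 are described; of each other list, the 2 genes of smallest adjusted p in each direction are named, except a few genes that are not reported here. GC content and length of transcripts were computed from GENCODE 29 (1 transcript per gene, matched for 93.1% of tested genes); the adjustment subtracts from each library natural splines of both, with 5 degrees of freedom each, and re-centres it. Median-of-ratios scaling, quantile normalization, pseudocounts of 0.1 and 5, other filters, removal of mitochondrially encoded genes, no trend, library weights, the replicate number as a block and leaving out each library were the alternatives. Upstream sequences are from RefSeq (GRCh38.p14). Plots used Python 3.11.15 and matplotlib 3.10.9.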

Additional observations from a re-analysis of the deposited data

How the results depend on the processing

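Of 522 values of single genes under 18 alternatives each, 471 kept direction and side of the threshold, 23 kept direction but no longer passed, 11 passed newly and 17 changed sign. The same call held in every alternative for 13 genes: ACAA2, ACADS, ACOX3, CPT1A, ECI2, ETFB, HADHA and SLC25A20 as higher, and ACADM, ACADSB, CROT, EHHADH and SCP2 as lower. The sign changes arose in scaling and GC adjustment, and their cause was not tested. After GC and length adjustment, with or without the replicate block, HADHB was at 0.41, DECR1 at 0.38, ETFA at 0.55, ETFDH at 0.0837, HSD17B4 at 0.30 and ACAA1 at -0.21, and the ECI1 to ECI2 log2 ratio, without a block, at -0.47. With median-of-ratios scaling HADHB was at 0.29, DECR1 at 0.0620 and ETFA at 0.29, and with quantile normalization HADHB was at 0.0107 and DECR2 at 0.0544. Of the 29 tested genes 7 were lower with median-of-ratios scaling. Of all genes, 3236 were higher and 6974 lower as deposited; median-of-ratios scaling gave 5290 higher and quantile normalization 5990 higher, and 4213 lower after GC and length adjustment (3982 with the block as well).

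Replicate numbers are shared by the groups, but same-numbered libraries did not deviate together (correlations 0.0941, -0.182 and -0.0726 across genes), and 1 of 6 libraries correlated best with its own number. With the replicate block 11 of the 29 genes were higher and 12 lower; ACOX2 did not pass (adjusted p = 0.0526), and with GC adjustment and block together ABCD3 (adjusted p = 0.0681) and CPT2 (adjusted p = 0.0765) did not pass. With 3 libraries per group and no depth, small differences between low genes such as PDK4 and ANGPTL4 are not resolved.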
